A study of Mus musculus with 12 samples.

Results

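Promoters that kept or gained H3K27ac are described here: promoter regions of regenerating mouse liver whose acetylation was as high without Cox10 as with it, or higher. They were chosen on the deposited values themselves. A region was taken when the submitters' annotation placed it within 1 kb of a start site and when log2((mean knockout value + 1)/(mean wild-type value + 1)) was 0 or more. The rule took 473 of 15980 promoter regions (2.96%), out of 36387 regions of all kinds, and these carried 366 of the 9663 gene names with a promoter region (3.79%). Because the rule used the knockout to wild-type contrast, that contrast is described in these regions and not tested in them.

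H3K27ac was measured by chromatin immunoprecipitation and sequencing of whole liver from mice with a floxed Cox10 allele. The wild-type group received AAV8-GFP and the knockout group AAV8-Cre, so both groups carried the floxed allele and a virus. Both underwent a 70% partial hepatectomy 4 weeks later, and livers were taken on day 2 after it. Each group had 3 H3K27ac libraries. The labels do not say whether each came from its own animal, so the spread between libraries may be technical. For library pairs of the same genotype, squared differences in reads were 1.06 to 1.19 times those of counting alone (chi-square divided by its degrees of freedom). For pairs of different genotypes the figure was 10.2 to 10.6. The spread within a genotype was thus close to counting noise. The SEs and calls below rest on it and are not read as variation between animals. In whole liver a change in the mix of cells and a change of the mark within cells cannot be told apart.

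H3K27ac is an acetyl group on lysine 27 of histone H3 that marks active promoters and enhancers, and its level at a promoter generally follows how actively the gene is transcribed. Cox10 encodes an enzyme of heme A synthesis, and cells without it cannot assemble cytochrome c oxidase, the last complex of the respiratory chain. Failing mitochondria are known to engage the integrated stress response, in which the transcription factor ATF4 activates genes of amino acid supply, one-carbon metabolism and stress hormones. ATF4 binds DNA with a C/EBP partner at composite elements known as CARE.

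Sequences around that element are shown first because genes of the ATF4 response recur among these promoters. The letters searched were TGATGNAAN on both strands, in RefSeq promoter windows (GRCm38.p6) from 250 bases before to 50 bases after an annotated start. Capitals mark the match, each sequence is written 5′ to 3′ on the strand of its gene, and the positions are those of the printed stretch.

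Atf3, minus strand, chr1:191183391-191183489: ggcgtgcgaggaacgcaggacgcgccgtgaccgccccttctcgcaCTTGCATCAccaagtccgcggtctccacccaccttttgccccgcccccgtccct
Trib3, minus strand, chr2:152344029-152344057: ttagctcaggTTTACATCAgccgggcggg
Arhgef2, plus strand, chr3:88616159-88616187: tgggatgggcTGATGAAATcccaggaaat
Gars, plus strand, chr6:55037925-55038000: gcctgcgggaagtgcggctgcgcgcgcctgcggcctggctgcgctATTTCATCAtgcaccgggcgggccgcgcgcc
Asns, minus strand, chr6:7693210-7693277: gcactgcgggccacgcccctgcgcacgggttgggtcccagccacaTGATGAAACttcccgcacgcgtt
Nupr1, minus strand, chr7:126625528-126625626: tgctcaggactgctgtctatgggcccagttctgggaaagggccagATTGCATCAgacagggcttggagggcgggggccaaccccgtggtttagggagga
Fgf21, minus strand, chr7:45615577-45615675: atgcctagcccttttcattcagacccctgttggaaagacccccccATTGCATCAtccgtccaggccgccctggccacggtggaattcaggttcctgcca

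Nupr1 and Fgf21 carried the same 9 letters, ATTGCATCA, at 111 and 140 bases before their starts, and Atf3 carried CTTGCATCA at 111 bases before its own. In Trib3 and Arhgef2 the match lay 13 and 26 bases past the start. Of the 7 matches printed, only that of Fgf21 lay inside a kept or gained region of its gene, and the other 6 lay 13 to 344 bases outside one. A match is a description of letters and shows no binding.

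Over the regions that overlapped a RefSeq window of their own gene, the windows of 11 of 89 kept or gained promoters held the element (12.4%, 95% Wilson interval 7.04% to 20.8%). So did the windows of 1.70% of 6230 other promoters and of 1.85% of all 6319. The match itself need not lie in the acetylated region. Regions can share a window, so the interval, which treats them as separate, is too narrow. Counted once per window, over windows whose start lay within 1 kb of the region's centre, it was in 11 of 182 windows beside kept or gained promoters (6.04%) and in 138 of 7506 beside any promoter (1.84%). Of the 11 genes concerned, 6 were on the ATF4 list. The sequences printed above are those of these 6 and of Arhgef2. The other genes with the element, Abraxas1, Anp32b, Arl2bp and Samd4, are not on the list and were not printed. Among 12 listed genes with such a window the element was found in 6, against 5 of 164 kept or gained genes outside the list (3.05%). Among listed genes with no kept or gained promoter it was found in 2 of 11 (18.2%). The list is made of known ATF4 targets, which are known for this element.

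The element was 1 of 17 motifs searched, all on both strands. AP-1 sites (TGANTCA) were found in 5.62% of the 89 windows and in 4.65% of all. CRE sites (TGACGTCA) were found in 7.87% and 3.37%, but in none of the 32 windows of promoters called higher, and in 3.12% against 3.81% in genes with 1 promoter region. C/EBP sites (TTGCNCAA) were found in 6.74% and 2.58%, but in 3.12% of the 32 windows of promoters called higher. In genes with 1 promoter region they were found in 9.38% against 1.86%. Motifs common in housekeeping promoters ranged from level to lower. SP1 sites (GGGCGG) were found in 65.2% against 67.1%. CCAAT boxes, read by NFY, were found in 23.6% against 35.5%, ETS sites (CCGGAAG) in 13.5% against 20.9%, and sites of nuclear respiratory factor 1 (GCGCATGC) in 1.12% against 6.33%. Median GC content was 63.0% in kept or gained promoters and 62.3% in all, and the median ratio of observed to expected CpG was 0.77 and 0.81. In the 32 windows of promoters called higher these medians were 58.8% and 0.62. A single window of the 89 is worth over 1 percentage point, and none of these differences was tested.

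The background was a broad loss of signal. The median promoter had a log2 ratio of -0.87, a 1.82-fold lower value in the knockout. Limma, applied to log2(value + 1) over all regions with Benjamini-Hochberg adjustment and a threshold of 0.05, called 92.3% of promoters lower and 1.26% higher. Against this, the 473 regions had a median log2 ratio of 0.29 (1.23-fold), with quartiles of 0.10 and 0.63 and a highest value of 3.88. The gains were mostly small. Of the 473, 218 (46.1%) were less than 1.2-fold higher, 138 (29.2%) were at least 1.5-fold higher and 73 (15.4%) at least 2-fold.

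Limma called 202 of the 473 higher (42.7%, in 164 genes) and none lower. The 202 were all of the promoters it called higher, which follows from the rule, so nothing is read from the count. EdgeR on reads recovered from the deposited values called 201, which were also all of the promoters it called higher (1.26% of 15980). In 208 the lowest knockout library lay above the highest wild-type library, and no other promoter had this (1.3% of 15980). The authors' deposited table gave 150 as higher with an adjusted p under 0.05, again all of its promoters with such a value. These counts come with the rule too, and nothing is read from them. Of the 202 calls, 139 stood whichever library was left out.

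The zero point of the ratio rests on the authors' size factors, whose derivation no source used here gives. When libraries were instead centred on their median region, or scaled to their totals, the median over all regions moved from -1.04 to 0.01 and -0.04. On these scales 65.6% and 61.6% of promoters had a ratio of 0 or more, and the median of the 473 was 1.34 and 1.29. Both scales move every log2 ratio up, so all 473 stayed at or above 0. Kept or gained thus means as high as in wild type on the deposited scale.

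**Figure D1:**
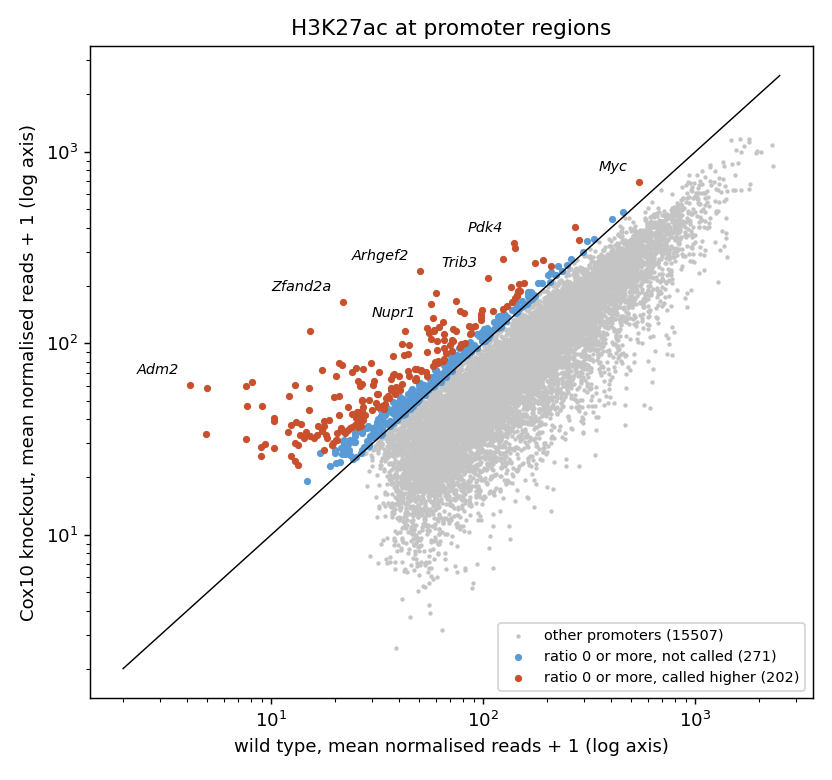
Mean H3K27ac of each promoter region in wild type (x) and Cox10 knockout (y), in normalised reads + 1 on log axes, 3 libraries per genotype; the line marks equal values. The 473 regions on or above the line, 202 of them called higher by limma (orange) and 271 not (blue), lie mostly at low wild-type signal, and the 15507 others are grey.

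At the threshold the values ran on without a gap. Within 0.1 of it, 111 promoters lay inside and 162 outside. The region of Cyb5r1, a cytochrome b5 reductase, stood just inside, with a ratio of 1.001. Prune1, a phosphatase, and the predicted gene Gm11714 stood just outside, with ratios of 0.996 and 0.995. Cyb5r1 held 120, 115 and 125 normalised reads in wild-type liver and 132, 119 and 109 in knockout liver. Prune1 held 126, 89.0 and 129 against 128, 115 and 99.2. The libraries of the genotypes overlap in both, and which side they fall on is within the spread between libraries.

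Promoters that kept or gained the mark were weak in wild type. Their median wild-type value was 44.7 normalised reads, against 140 in the other promoters, and in the knockout the medians were 59.0 and 73.1. In 4 bins of equal size by wild-type signal, from lowest to highest, the rule took 361, 63, 39 and 10 of 3995 promoters each (9.04%, 1.58%, 0.98% and 0.25%). The ratio has the wild-type value in its denominator, so part of this gradient comes with the rule. The median region rested on 34 reads per wild-type library and 73 per knockout library. Together the 473 held 0.990% ± 0.0085 of all promoter signal in wild-type liver and 2.45% ± 0.032 in knockout liver (SD, n = 3). They were chosen on this contrast, so a higher share in the knockout comes with the rule and nothing is read from it.

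Over all, their median width was 400 bases and that of the other promoters 530. Within the 4 bins of wild-type signal their medians were the higher ones, at 341 against 258 bases, 707 against 420, 983 against 642 and 1693.5 against 1139. Regions are the submitters' peaks, and whether a region was drawn from wild-type or knockout reads was not analysed here.

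Many of them lay away from the main start of their gene. A RefSeq window of the named gene could be matched for 355 of the 473, and 89 of these (25.1%) overlapped it, against 6230 of 12111 other promoters (51.4%). The median distance from region centre to RefSeq start was 725.5 bases against 411. The centre lay over 2 kb downstream of that start in 100 (28.2%) against 9.23% of the others, which means that the annotation behind the table placed the start of a further transcript inside the gene. In the lowest bin of wild-type signal 19.6% of kept or gained promoters and 31.7% of the others overlapped a RefSeq window. In the highest bin the shares were 66.7% of 6 regions and 66.3% of 3125.

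In most genes the mark was kept at only part of the promoter regions. Of the 366 genes, 128 had a single promoter region, 42 had several that were all kept or gained, and 196 (53.6%) had both kept or gained regions and regions below 0. In 33 of the 196 the strongest promoter region was a kept or gained one. The other 398 promoter regions of the 196 genes are below 0 by construction. They had a median log2 ratio of -0.66, and limma called 319 of them lower (80.2%). With wild-type values compared within the gene, the strongest region below 0 held a median of 4.16 times the signal of the strongest kept or gained one. The wild-type value is the denominator of the ratio, so part of this gap comes with the rule. Kept or gained regions of these genes overlapped a RefSeq window in 40 of 214 (18.7%) and the gene's other regions in 146 of 334 (43.7%).

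Ciapin1, which encodes a factor of cytosolic iron-sulfur cluster assembly, shows this division. It was chosen, as were the next 4 genes, after its values were seen. A region 13259 bases downstream of its RefSeq start (chr8:94824918-94825244) held 7.98, 10.96 and 5.11 normalised reads in wild-type liver and 51.0, 42.0 and 45.5 in knockout liver. Its fold change on the log2 scale was 2.43 (limma, SE 0.32). The genotypes do not overlap there. At its main start (chr8:94837619-94838316) the values were 246, 248 and 277 in wild-type liver and 161, 165 and 140 in knockout liver, a fold change of -0.72 on the log2 scale (SE 0.11), again without overlap and in the opposite direction.

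Timm23 encodes the channel of the inner-membrane protein import complex. Its region 10663.5 bases downstream of the RefSeq start held 13.3, 13.7 and 6.39 normalised reads in wild-type liver and 55.2, 47.6 and 53.8 in knockout liver, while its start region fell, from 216, 203 and 201 to 150, 145 and 139. Eif2ak3 encodes PERK, a kinase that starts the integrated stress response. A region 34914.5 bases into that gene held 12.0, 8.22 and 7.67 normalised reads in wild-type liver and 24.6, 26.6 and 31.1 in knockout liver. The 2 regions at the start of Eif2ak3 had fold changes of -0.57 and -0.46 on the log2 scale (SE 0.13 for both), and limma called both lower.

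Nfe2l2 encodes NRF2, the antioxidant regulator, and Nfe2l1 a related factor that controls proteasome genes and is distinct from nuclear respiratory factor 1. Both genes had kept or gained regions beside regions called lower. Nfe2l2 held 71.8, 74.0 and 63.9 normalised reads in wild-type liver and 113, 100 and 97.7 in knockout liver at 18532 bases from its start. Its start region fell from 495, 583 and 566 to 401, 404 and 361. Nfe2l1 had 9 promoter regions, of which 2 were kept or gained, 5 were called lower and 2 were below 0 without a call. Its most raised region (chr11:96822086-96822697) held 47.9, 43.8 and 29.4 in wild-type liver and 97.7, 106 and 92.4 in knockout liver.

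**Figure D2:**
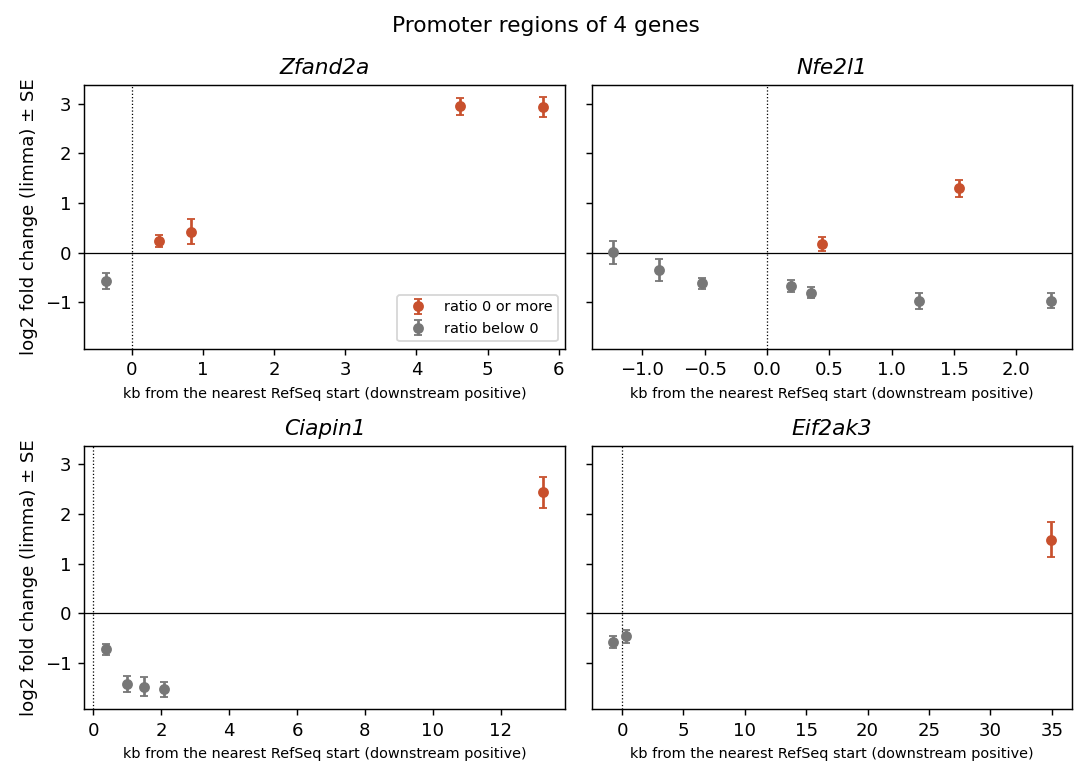
Fold change (limma, log2, ± SE) of each promoter region of Zfand2a, Nfe2l1, Ciapin1 and Eif2ak3 against the distance of its centre from the nearest RefSeq start of the gene in kb. Kept or gained regions (orange) stand up to 34.9 kb inside the gene, and in Ciapin1 and Eif2ak3 every region within 2.1 kb of the start lies below 0.

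The widest divisions that the naming rule picked were in genes whose kept region barely moved. Esd, an esterase of formaldehyde detoxification, had a fold change of 0.29 (SE 0.22) on the log2 scale at its kept region and -2.43 (SE 0.12) at its lowest. Blvrb, which encodes biliverdin reductase B, had 0.15 (SE 0.14) and -2.45 (SE 0.24). Madd, an exchange factor for Rab GTPases, had 0.19 (SE 0.16) and -2.53 (SE 0.32). Rtn4, a membrane-shaping reticulon, had 0.29 (SE 0.11) and -2.27 (SE 0.26). Only the kept region of Rtn4 was called higher, and it lost that call without the third wild-type or the first knockout library.

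The largest gains were at promoters with almost no signal in wild type. Adm2, which encodes the peptide adrenomedullin 2, held 5.32, 2.74 and 1.28 normalised reads in wild type, from 4, 2 and 1 recovered reads, and 74.8, 47.6 and 56.8 in the knockout (chr15:89322986-89323316). Its fold change was 3.98 on the log2 scale (limma, SE 0.39). Tenm4, a teneurin adhesion protein, held 3.99, 2.74 and 5.11 against 52.7, 67.0 and 51.5, with a fold change of 3.57 (SE 0.36). In both the genotypes are far apart, and with so few wild-type reads the size of the fold is known only roughly. Both were named after their values were seen, since the naming rule asks for a signal at or above the median promoter.

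Among promoters above that signal, Arhgef2 had the highest fold change. It encodes GEF-H1, a microtubule-bound activator of the GTPase RhoA. Its region at chr3:88616192-88617339 held 53.2, 53.4 and 40.9 normalised reads in wild-type liver and 234, 249 and 230 in knockout liver, a fold change of 2.26 on the log2 scale (SE 0.13). The knockout libraries all stand over 4 times above the wild-type ones. A smaller region just upstream was also called higher, and the 2 regions further into the gene were not called, with fold changes of -0.12 (SE 0.11) and -0.26 (SE 0.23).

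The others with high change at this signal were Dlgap1, Lhfpl2, Pdk4, Cd63, Myc, Cd14 and Trib3, with fold changes from 1.06 to 1.61 on the log2 scale. Dlgap1, a scaffold protein known from synapses, held 54.5, 57.5 and 65.2 normalised reads in wild-type liver and 190, 172 and 183 in knockout liver. Lhfpl2, a tetraspan membrane protein, held 78.5, 50.7 and 37.1 against 167, 161 and 148. Cd63, a tetraspanin of late endosomes, held 136, 111 and 121 against 289, 287 and 249. In none of them did the genotypes overlap.

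The ATF4 and integrated stress response list had the highest share of genes with a kept or gained promoter among the 20 gene lists counted. Of 38 listed genes 29 had a promoter region, and 13 of these (44.8%) had one that was kept or gained, against 3.79% of all genes with a promoter region. In 9 of the 13 at least 1 region was called higher. Such a call was found in 164 of all 366 genes with a kept or gained promoter (44.8%). Over all genes with a promoter region the share was 1.70%. Both shares are the background for the calls in the lists below. Over the strongest promoter region of each gene, the list had a median log2 ratio of -0.24 with 16 of 29 called lower, and all genes a median of -0.82 with 93.8% called lower. Most of its strongest promoters were thus called lower too. The members of the list were chosen with earlier results of these data known.

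Amino acid supply came with the highest values. Slc7a1, the importer of arginine and lysine, held 16.0, 12.3 and 29.4 normalised reads in wild-type liver and 69.7, 70.2 and 59.9 in knockout liver, a fold change of 1.83 on the log2 scale (SE 0.23). Asns, asparagine synthetase, held 7.98, 8.22 and 7.67 against 24.6, 29.1 and 29.5, with a fold change of 1.68 (SE 0.37). Both rose from low signal without overlap of the genotypes.

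Psat1, of serine synthesis, had 2 kept or gained regions with fold changes of 1.02 (SE 0.30) and 0.32 (SE 0.19), the first called higher. Mthfd2, a mitochondrial enzyme of one-carbon metabolism, held 43.9, 27.4 and 38.3 normalised reads in wild-type liver and 79.9, 65.4 and 56.1 in knockout liver. Aldh18a1, of proline synthesis, had a fold change of 0.68 (SE 0.26), and its call was lost without the first knockout library. Slc3a2, the shared heavy chain of amino acid transporters, was kept without a call in 2 regions, at 0.16 (SE 0.18) and 0.04 (SE 0.11), and called lower in another. Gars, glycyl-tRNA synthetase, was kept in 1 region at 0.19 (SE 0.11) and called lower in the one just upstream at -0.62 (SE 0.15), on either side of the stretch printed above.

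Regulators of the response followed. Trib3, a pseudokinase induced by ATF4, had both of its promoter regions called higher. The larger held 117, 115 and 81.8 normalised reads in wild-type liver and 247, 217 and 188 in knockout liver, a fold change of 1.06 on the log2 scale (SE 0.12). Nupr1, a small stress-induced chromatin protein, held 51.9, 60.3 and 47.3 against 139, 107 and 114, with a fold change of 1.16 (SE 0.15). Each genotype keeps to its own range in both genes.

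Ppp1r15a encodes GADD34, which brings the phosphatase that ends the response to eIF2. It had 2 weak regions called higher, at 0.73 (SE 0.27) and 0.42 (SE 0.16), beside a strong one called lower at -0.24 (SE 0.08). The call of the first was lost without the third knockout library, and that of the second without the second library of either genotype. Atf3, a repressor induced early in stress, was kept without a call at 54.5, 49.3 and 51.1 normalised reads in wild-type liver and 67.1, 54.1 and 48.5 in knockout liver. Its stronger region was called lower, at -0.44 (SE 0.12). Ddit4, an inhibitor of mTORC1, was likewise split, at 0.19 (SE 0.10) without a call and -0.19 (SE 0.08) with one. In these 3 genes the strongest promoter region was the one that fell.

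Fgf21 encodes the hormone that liver secretes under mitochondrial stress. Its region at chr7:45615617-45616213, which overlaps the printed element, held 31.9, 39.7 and 42.2 normalised reads in wild-type liver and 62.0, 61.3 and 51.5 in knockout liver. Its fold change was 0.61 on the log2 scale (SE 0.19), and the genotypes did not overlap. The region past the element on the gene side had -0.22 (SE 0.18) and was not called.

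2 further genes tied to this response were looked up after their values were seen. Mthfd1l, the mitochondrial formate-producing enzyme, held 82.5, 84.9 and 86.9 normalised reads in wild-type liver and 127, 119 and 122 in knockout liver. Lonp1, the main protease of the mitochondrial matrix, held 142, 136 and 123 against 200, 213 and 175. The genotypes do not overlap in either.

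**Figure D3:**
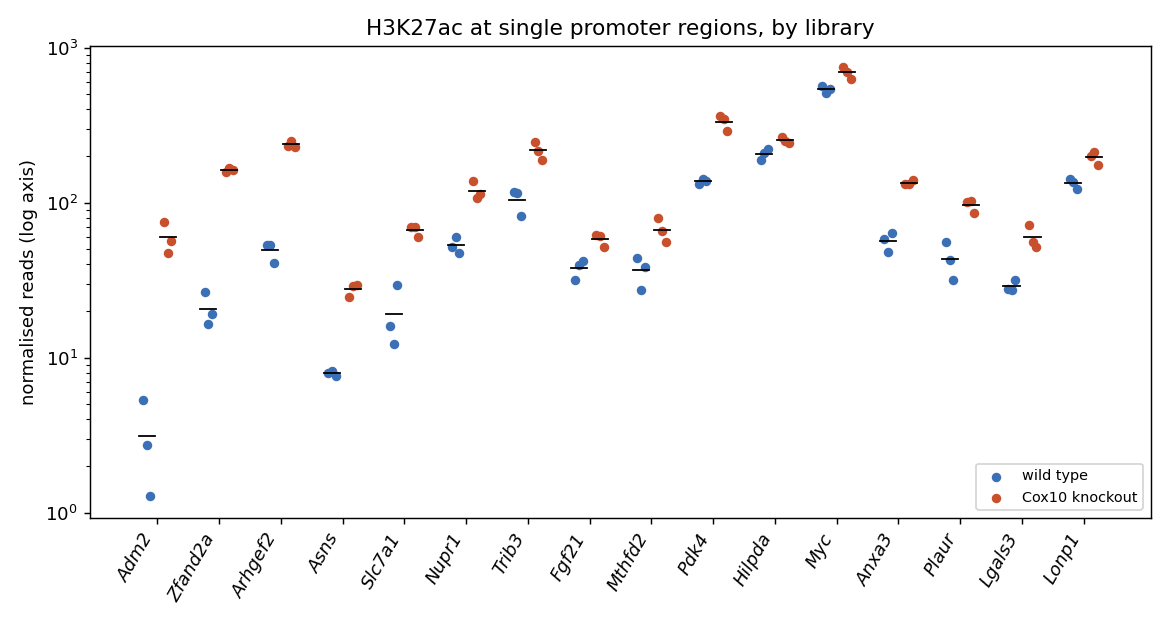
Normalised reads (log axis) in each of the 3 wild-type (blue) and 3 knockout (orange) libraries at 1 kept or gained promoter region of each of 16 genes, with a bar at the mean. The 16 were picked by hand with their values seen, so they do not stand for the 473. In each of the 16 every knockout library lies above every wild-type library, which was so in 208 of the 473 (44.0%). The separation is widest for Adm2 and narrowest for Hilpda and Myc.

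Zfand2a was the exception in the heat shock list. Of 22 listed genes with a promoter region, 2 had a kept or gained one (9.09%), Zfand2a and the collagen chaperone Serpinh1, and 19 of the strongest promoters were called lower. Zfand2a, which encodes an arsenite-inducible partner of the proteasome, had 5 promoter regions. The 2 regions 4.6 and 5.8 kb downstream of its start rose most. The nearer held 26.6, 16.4 and 19.2 normalised reads in wild-type liver and 158, 169 and 163 in knockout liver, a fold change of 2.94 on the log2 scale (SE 0.17). The 2 regions just past the start were kept at 0.23 (SE 0.12) and 0.42 (SE 0.25), and the one before it was called lower at -0.57 (SE 0.16). Serpinh1 stood at 26.6, 12.3 and 30.7 against 21.2, 21.8 and 28.8, with overlap.

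Among AP-1 and immediate early factors, 4 of 21 genes with a promoter region had a kept or gained one: Atf3, Maff, Klf4 and Myc. Myc, a transcription factor of growth, had the strongest of all 473 regions. That region held 563, 512 and 543 normalised reads in wild-type liver and 747, 700 and 630 in knockout liver, a fold change of 0.36 on the log2 scale (SE 0.08). A second region downstream held 83.8, 72.6 and 63.9 against 178, 163 and 152, with a fold change of 1.16 (SE 0.13). The genotypes were separate in both. Klf4, a zinc-finger factor, had 3 regions, all called higher, at 0.43 to 0.80, and the call of the weakest was lost without the first or the second library of either genotype. Maff, a small Maf protein, had 2 kept regions without a call and a strong one called lower at -0.34 (SE 0.10).

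Myc was accompanied by its neighbour Pvt1, a long noncoding RNA gene. It was named with its values seen. Of 33 regions outside promoters that carried the name Pvt1, 22 were called higher and 5 lower. Over all regions outside promoters the shares were 6.96% and 83.2%. The log2 ratios of the 33 ran from -2.06 to 2.68, with a median of 0.70. A promoter region of Pvt1 was called higher too, a call lost without the second library of either genotype.

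Lipid droplet proteins had 4 of 14 genes with a kept or gained promoter (28.6%), and 11 of the 14 strongest promoters were called lower. Hilpda, an inhibitor of the triglyceride lipase ATGL, held 53.2, 46.6 and 66.5 normalised reads in wild-type liver and 102, 114 and 96.2 in knockout liver at its upstream region, a fold change of 0.91 (SE 0.15). Its start region, with 189, 210 and 222 against 267, 252 and 242, was also called higher, at 0.29 (SE 0.10). Cidec, which enlarges droplets, had 1 region called higher at 0.51 (SE 0.13). Pnpla2, which encodes ATGL itself, and Plin2, a droplet coat protein, were each kept without a call at a weak region, at 0.40 (SE 0.20) and 0.18 (SE 0.16), and called lower at their strong ones, at -0.47 (SE 0.08) and -0.31 (SE 0.07).

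Of 25 genes of glycolysis, pyruvate use and hypoxia, 4 had a kept or gained promoter (16.0%), and only Pdk4 had one called higher. Pdk4 encodes a kinase that shuts pyruvate dehydrogenase. Just upstream of its start it held 133, 142 and 138 normalised reads in wild-type liver and 363, 349 and 290 in knockout liver, a fold change of 1.27 on the log2 scale (SE 0.10). 5 of its 6 regions outside promoters were called higher too, against 6.96% of all such regions. Hk1, Pkm and Ndrg1 had fold changes of 0.31 (SE 0.29), 0.30 (SE 0.19) and 0.04 (SE 0.14) without a call.

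Genes of the cytoskeleton, adhesion and YAP targets had 6 of 24 with a kept or gained promoter, 4 of them with a call. Anxa3, a calcium-dependent membrane-binding annexin, held 58.5, 47.9 and 63.9 normalised reads in wild-type liver and 133, 132 and 140 in knockout liver, a fold change of 1.24 (SE 0.14). Plaur, the urokinase receptor, held 55.9, 42.5 and 32.0 against 101, 102 and 85.6, and Lgals3, a galectin, 27.9, 27.4 and 32.0 against 72.2, 55.7 and 51.5. All 3 are separate between genotypes. S100a11 was called higher at 0.43 (SE 0.13), a call lost without the first knockout library, and Anxa2 and Tubb2a were kept without a call.

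Antioxidant NRF2 targets had 3 of 18 (16.7%). Nqo1, a quinone reductase, held 58.5, 74.0 and 79.2 normalised reads in wild-type liver and 110, 106 and 90.2 in knockout liver. Taldo1, of the pentose phosphate pathway, was called higher at a weak region, at 0.81 (SE 0.24), and lower at 2 stronger ones. Abcc3, an exporter of conjugated bile acids, was kept without a call at its start, at 0.11 (SE 0.12). Of its 14 regions outside promoters 7 were called higher, against 6.96% of all such regions.

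The p53 targets had 3 of 21 (14.3%). Gadd45a, a growth arrest protein, was called higher at 0.39 (SE 0.14), a call lost without the second wild-type library, while its stronger region was level at -0.02 (SE 0.11). Phlda3 and Bax had 0.24 (SE 0.13) and 0.03 (SE 0.11) without a call. Growth factors, receptors and MAPK feedback genes had 4 of 20 (20.0%). Of these only Fgf21 had a call, and Dusp4, Dusp5 and the activin subunit gene Inhbb did not.

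In metallothionein and zinc transport genes 1 of 7 qualified (14.3%). It was Slc39a14, a zinc importer, with 4 weak kept or gained regions, 1 of them called higher at 0.57 (SE 0.24). The call was lost without the first wild-type, the first knockout or the second knockout library, and 5 stronger regions of the gene were called lower, down to -1.98 (SE 0.10).

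Few genes of the hepatocyte lists were among them. Of 36 secreted hepatocyte proteins with a promoter region 1 had a kept or gained one (2.78%), Itih2, at 0.31 (SE 0.15). That call was lost without the first or the third library of either genotype, and its main region was called lower at -0.78 (SE 0.08). None was found among 22 hepatocyte transcription factors or 29 hepatocyte metabolic enzymes. Counts of 0 were also obtained for cell cycle and DNA replication (21 genes), cytochrome c oxidase subunits and assembly (23), autophagy and lysosome (23) and NF-kB, cytokines and chemokines (13). The remaining lists, developmental transcription factors, histone genes and fetal liver genes, had 3, 3 and 1 gene with a promoter region and none kept. Against a background of 3.79%, a count of 0 or 1 in lists of this size is not a result about the list.

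**Figure D4:**
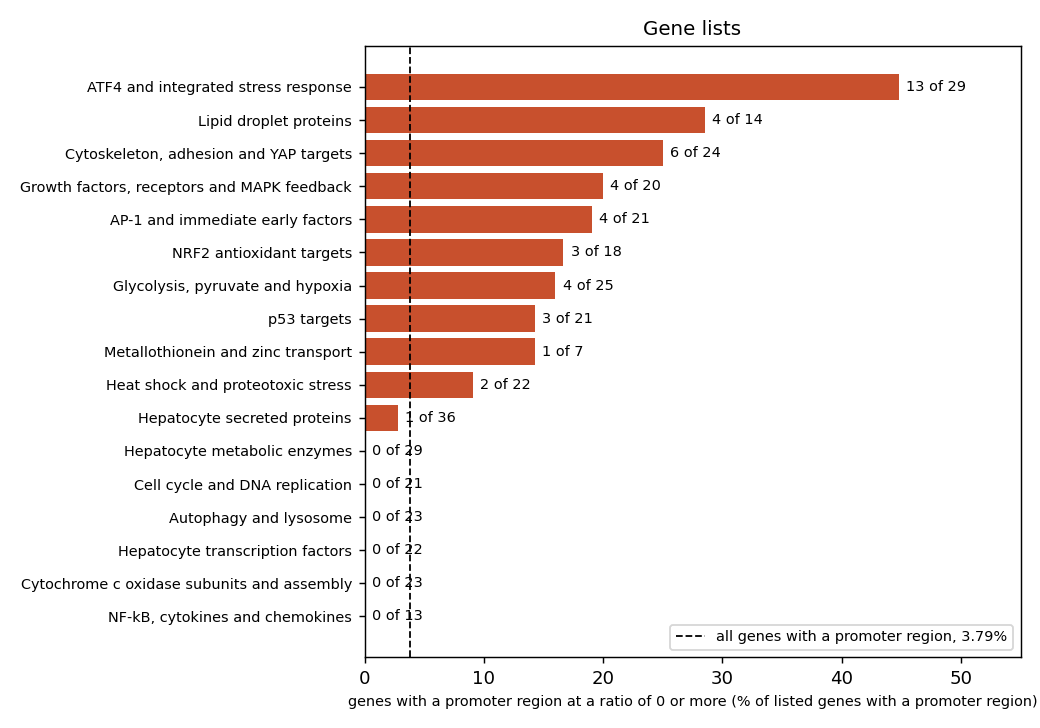
Share of the genes of each list with a promoter region that had at least 1 kept or gained one (bars, with counts), for the 17 lists with 7 or more such genes; the dashed line is the 3.79% of all genes. The ATF4 list stands at 44.8%, and 6 lists have none.

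Marker genes of other cell types were counted beside these. Of the 15 macrophage markers 3 had a promoter region, and 2 of these, Cd14 and Cd68, had kept or gained ones. Summed over promoter regions, the macrophage markers held 430 to 460 normalised reads in the wild-type libraries and 505 to 581 in the knockout libraries. The third gene, the chemokine receptor Cx3cr1, went the other way and was called lower, with a fold change of -1.23 on the log2 scale (SE 0.12). Of the 24 regions outside promoters that carried macrophage marker names, 3 were called higher and 17 lower, with a median log2 ratio of -0.59. The main region of Cd14, a receptor for bacterial lipopolysaccharide, rose from 140, 140 and 142 to 316, 341 and 284. In Cd68, a lysosomal protein of phagocytes, the called region had a fold change of 0.61 (SE 0.27) and lost its call without the second wild-type, the third wild-type or the first knockout library. The macrophage-defining genes Adgre1, Csf1r and Clec4f were among the 12 with no promoter region in the table. The part of macrophages in the results above was not tested.

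No kept or gained promoter was found among markers of endothelial cells (2 genes with a promoter region), bile duct (2), lymphocytes (1) or erythroid cells (1), and stellate, neutrophil and mesothelial markers had no promoter region at all. All 12 hepatocyte markers had one, and all were called lower at their strongest region. Their sum was 9372 to 9620 normalised reads in wild-type liver and 2305 to 2691 in knockout liver. Hepatocyte markers thus had the highest sum of any marker list in all 6 libraries. That sum runs over 24 promoter regions, against 6 each for macrophage and bile duct markers. Sums grow with the number of regions, so they do not rank the cell types.

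Predicted names aside, the strongest kept or gained promoters after Myc were those of Dus2, Acot2, Clcf1, Btbd19 and Susd1. Dus2, which makes dihydrouridine in tRNA, held 391, 416 and 397 normalised reads in wild-type liver and 437, 450 and 442 in knockout liver, a fold change of 0.14 on the log2 scale (SE 0.08) without a call. Acot2, a mitochondrial acyl-CoA thioesterase, held 327, 323 and 341 against 342, 358 and 350, also without a call. Clcf1, a cytokine of the interleukin-6 family, held 315, 286 and 208 against 424, 404 and 389 and was called higher at 0.61 (SE 0.09). In these 3 each knockout library exceeded each wild-type library, which was so in 208 of the 473 (44.0%). Those 208 are all of the promoters where it was so (1.3%), which comes with the rule. The margin was small in Acot2 and Dus2. Btbd19 held 322, 296 and 303 against 379, 333 and 310, where the genotypes overlap, and was not called.

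Susd1, a sushi-domain protein, had 5 kept or gained promoter regions, the most of any gene, all of them called higher, at 0.31 to 2.05. Its sixth and strongest region held 524, 463 and 478 in wild-type liver and 407, 415 and 380 in knockout liver and was called lower. In all, 85 of the 366 genes had 2 or more kept or gained regions and 16 had 3 or more. Predicted gene names made up 9.02% of the 366 and 9.25% of all genes with a promoter region.

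Regions outside promoters were not used by the rule, although the genotypes compared are the same libraries. The 183 genes with a kept or gained promoter and such regions had 964 of them, with a median log2 ratio of -0.51, against -1.28 over all 20407 regions outside promoters. A ratio of 0 or more was found in 325 (33.7%), against 11.3% of all. Limma called 229 higher (23.8%) and 533 lower (55.3%), against 6.96% and 83.2% of all. Most of these regions were thus called lower, and the difference from all regions was not tested. With 1 value per gene, the median of gene medians was -0.18 against -1.30, and 82 of 183 genes (44.8%) had a median of 0 or more against 10.6% of all 5242. The 10 genes with the most regions held 26.3% of the 964.

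By distance, the regions nearest to a kept or gained promoter had the highest values. Within 5 kb of the kept or gained promoter, 226 regions had a median log2 ratio of 0.05, and 50.9% were at 0 or more. Regions as near to a promoter of other genes had -1.39 and 4.75%. From 5 to 20 kb the medians were -0.53 and -1.28, from 20 to 100 kb -0.87 and -1.25, and beyond 100 kb -0.66 and -1.29. Neighbouring regions can share fragments and hence reads, and the name of a distant region is that of its nearest gene.

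**Figure D5:**
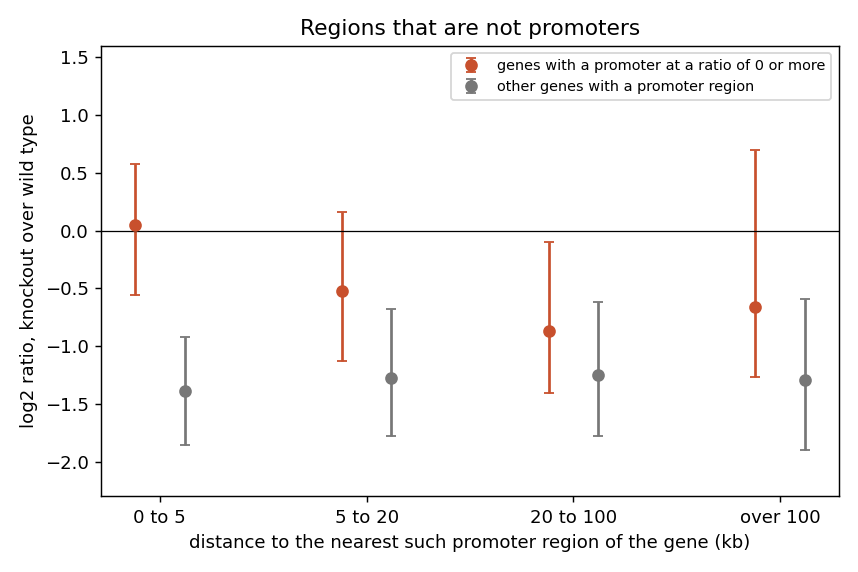
Log2 ratio (knockout over wild type) of regions outside promoters by distance in kb, as median (point) and quartiles (bars), for genes with a kept or gained promoter (orange, distance to the nearest such region) and for other genes (grey, distance to their nearest promoter region). Within 5 kb the medians are 0.05 and -1.39, and beyond 20 kb the quartile ranges overlap widely.

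By annotation, the 36 exon regions and the 157 regions 1 to 2 kb from a start in genes with a kept or gained promoter both had a median log2 ratio of -0.19, intergenic regions -0.52 and introns -0.66. In other genes these medians were -1.37, -1.38, -1.24 and -1.30. Single genes differed widely. All 6 regions outside promoters named AU019990 and 8 of 10 named Dlgap1 were called higher, while Zmiz1, a SUMO ligase cofactor, had 3 of 51 called higher and 29 lower.

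Promoters of other genes close by were mostly below 0. A promoter region of another gene lay within 5 kb of 52 of the 473, and in 14 (26.9%) it was itself kept or gained, against 31 of 2835 (1.09%) for the other promoters. The neighbours had a median log2 ratio of -0.44 against -0.89. Each region was looked up on its own, so a pair of kept or gained neighbours can be counted from both sides. Regions this close can also share reads, and the difference was not tested. Chromosome 6 held the highest share, 42 of 867 promoters (4.84%), and the X chromosome the lowest, 4 of 247 (1.62%).

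Cox10 itself had no promoter region in the table. Its single region, in intron 5 of 6 (chr11:63977336-63977787), held 14.6, 17.8 and 12.8 normalised reads in wild-type liver and 60.3, 46.0 and 65.9 in knockout liver, a fold change of 1.86 on the log2 scale (SE 0.24). The genotypes are apart, but an acetylation peak in an intron does not check whether the gene was deleted.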

How the data were processed

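H3K27ac and input libraries were made from regenerating liver, 3 of each per genotype, and the 6 inputs were not used. The authors deposited 1 table of normalised reads per region (a signal), with log2 fold changes, their standard errors, p-values, adjusted p-values and a test statistic (a score) per the file headers. In the deposited signal 100% of values were whole reads, within 0.01, divided by 1 size factor per library, which ran from 0.730 to 0.782 for wild-type and from 1.18 to 1.32 for knockout libraries. Per the labels' protocols, foreign chromatin was spiked in, but whether the factors rest on it is not stated there. BWA 0.7.5, MACS, deepTools 3.5.0 and mm10 are named per the submitters' processing notes. The regions held 3897454 to 4187377 reads per wild-type library and 3282878 to 3385453 per knockout library. Of 36446 listed regions 59 repeated a position and were dropped. Chromosome 16 was not analysed here, so any listed gene on it counts as having no promoter region.

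All 36387 regions were fitted with limma 3.58.1 in R 4.3.3, with a variance trend, on log2(value + 1), without filter or block, and p-values were adjusted by Benjamini-Hochberg over all regions. Such a fold change understates the change of low regions, and limma's SE borrows from other regions. The fit was tested on simulated data in which most regions did not change. That setting differs from the broad loss here, so nothing is read from it about the calls above. EdgeR 4.0.16 and DESeq2 1.42.0 on recovered reads, other scalings, pseudocounts, thresholds, a block and leaving out each library were alternatives.

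Members, the 20 gene lists and the 9 marker lists were chosen with earlier results of these data known. The naming rule took Cox10, and, at or above the median promoter signal and without predicted names, the 8 members with the highest change and 6 with the highest signal. It added up to 3 members per list, 2 regions on each side of the threshold and 4 genes with the widest division. One region just inside the threshold is not reported here. Other members of the lists were named with their values seen. RefSeq windows were matched by symbol for 278 of 366 genes. Nearly identical gene copies can share reads.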

Additional observations from a re-analysis of the deposited data

How the results depend on the processing

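The number of kept or gained promoters depends on the scale. It was 473 as deposited, 10480 with libraries centred on their median region and 9837 scaled to their totals, and those called higher numbered 202, 6812 and 6013. With only regions at or above the median signal it was 156, of which 63 were called. It was 787 with promoters within 3 kb and 260 at a threshold of 0.25. Leaving out 1 library gave 444 to 545, of which 419 to 461 were among the 473, and 167 to 214 calls. DESeq2 called 150, and a threshold of 0.01 on adjusted p left 156. With members chosen anew on each scale, other promoter regions of their genes had a median log2 ratio of -0.26 centred and -0.25 scaled to totals, and regions outside promoters -0.0473, -0.0776 and, at or above the median signal, -0.31. The share of windows with CARE was 6.25% in genes with 1 promoter region (2 of 32, Wilson interval 1.73% to 20.1%). That interval includes the 1.78% of all windows of such genes, so no excess is read from it. For starts within 1 kb the share was 6.47% (13 of 201, 3.82% to 10.7%), against 1.82% of all. The second setting was chosen after the data were seen, and shared windows make its interval too narrow.

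Of 45 named regions followed, 3 changed sign when 1 library was left out. The log2 ratio of Cyb5r1 ran from -0.0701 to 0.065, of Bax from -0.0276 to 0.113 and of Serpinh1 from -0.249 to 0.2853. With a replicate block 205 were called. Same-numbered libraries deviated with correlations of -0.0009, 0.0074 and 0.0054, so the numbers do not pair them. Depth limits low regions most: the median kept or gained region had 34 reads per wild-type library.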
